A study of Mus musculus with 12 samples.

Results

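Mitochondrial ribosomal protein genes were described in mouse leukaemia stem cells that did or did not carry a deletion of Terc, which encodes the RNA template of telomerase. They were taken as all genes whose platform symbol starts with Mrpl or Mrps followed by a number. This gave 74 genes, 47 of the Mrpl series and 27 of the Mrps series, represented by 125 probes. Of these, 71 genes (44 Mrpl and 27 Mrps) had a probe above background on at least 3 of 12 arrays, out of 11916 genes tested in all. The brightest such probe stood for each gene. The 3 genes without one were Mrpl32, Mrpl19 and Mrpl21, whose probes had mean log2 values of 6.26, 6.29 and 6.33 against a background limit of 6.57 and lay above it on 0 arrays. Just inside the rule, Mrpl45 had a mean of 6.57 and passed on 4 arrays, and Mrps14 had a mean of 6.57 and passed on 7. The other 69 genes lay above the limit on all 12 arrays.

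The mitochondrial ribosome makes the few proteins that mitochondrial DNA encodes, all of them core subunits of the oxidative phosphorylation complexes. Its rRNAs come from mitochondrial DNA, whereas its proteins are encoded in the nucleus, made in the cytosol and imported. The Mrpl genes encode proteins of the large subunit, where peptide bonds form, and the Mrps genes those of the small subunit, where mRNA is read. Many of these proteins descend from bacterial ribosomal proteins and others are found in mitochondria only. Human acute myeloid leukaemia cells, stem cells included, are known to be sensitive to drugs that block mitochondrial translation.

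The RNA came from leukaemias driven by MLL-AF9, a fusion gene found in human leukaemia, expressed with gfp in C57BL/6J bone marrow LKS progenitors that were either WT or third-generation (G3) Terc-/-. Each recipient, 6 to 8 weeks old, was irradiated (5.5 Gy) and injected with 10000 of these cells, and at the onset of each leukaemia cells that were gfp+, lin-, kit+ and Fcgr+ were sorted from marrow, so all groups carried the same oncogene and passed the same gate. There were 6 WT and 6 Terc-/- Illumina bead arrays, and a status label gave p-p53 (Ser15) for Terc-/- replicates 2, 3 and 6, p-foxo3a (Ser253) for replicates 1 and 4 and none for replicate 5. The arrays of WT replicates 5 and 6, and of Terc-/- replicates 2 and 6, differed by no more than technical noise (correlation at least 0.996, against at most 0.990 in other pairs), and each pair was counted as 1 sample. This left 5 samples in each group, and among those of Terc-/- 2 were p-p53 and 2 p-Foxo3a. Separate animals are not stated for the replicates, so a p-value here refers to the spread over these samples, which may be technical.

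All values are the deposited log2 levels, and array medians lay between 6.57 and 6.58. Between 19280 and 19465 probes lay above the limit on each array, and the number of arrays limits the precision. All 8 markers of the sorted progenitors were measured. They were Kit (12.29 to 13.24), Fcgr2b (11.42 to 12.32), Cd34 (6.94 to 9.06), Hoxa9 (9.63 to 11.04) and Meis1 (11.53 to 13.20). The others were Mpo (13.72 to 15.77), Elane (15.37 to 15.88) and Ctsg (14.88 to 15.75). Of the T and NK cell markers 3 were measured, Nkg7 (9.56 to 14.14), Cd4 (6.34 to 6.69) and Klrb1c (6.35 to 6.84), and Cd3e, Cd3g and Cd8a were not above the limit. Of the B cell markers Cd79b (10.17 to 11.35) and Ms4a1 (6.39 to 6.78) were measured and Pax5 was not above the limit. The 4 measured monocyte and macrophage markers were Adgre1 (9.10 to 11.75), Cx3cr1 (7.51 to 10.84), Csf1r (8.44 to 9.63) and Ccr2 (6.55 to 7.74), with a log2 summed level of 10.96 to 12.24 in WT and 11.39 to 11.57 in Terc-/-. Erythroid markers were Hba-a1 (6.40 to 8.18), Klf1 (6.54 to 7.26) and Epor (6.40 to 6.77), with Alas2 not above the limit. Markers of mature neutrophils differed between samples with a median SD of 1.18 on the log2 scale, where the highest SD of an Mrpl or Mrps gene was 0.37. Their 10 measured genes had a log2 summed level of 16.62 to 17.63 in WT and 15.32 to 17.73 in Terc-/- samples, Mmp8 was not above the limit, and all 10 had lower means in Terc-/-, by a median of 0.71. Their part in the results below was not tested.

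Promoters are shown first because they are a feature of the genes that the naming rule did not use. A RefSeq promoter (GRCm38.p6, 250 bases before to 50 after a transcription start) was found for 65 of the 74 genes and for 63 of the 71 measured genes, which have 69 promoters. Printed below, 5′ to 3′ on the gene's strand, are stretches from up to 150 bases before to 30 after the start. They belong to the genes with non-overlapping groups (Mrps15 and Mrpl18), to a gene with both an ETS and a YY1 match (Mrps18a; Mrps27 has both too), to a pair of genes with repeated ETS matches (Mrpl43 and Mrpl53) and to the gene whose start lies nearest to that of another Mrp gene (Mrpl46). Capitals mark matches on either strand to the ETS motif CCGGAAG or the YY1 motif AAGATGGCG.
Mrps15 (chr4:126046778-126046957, + strand): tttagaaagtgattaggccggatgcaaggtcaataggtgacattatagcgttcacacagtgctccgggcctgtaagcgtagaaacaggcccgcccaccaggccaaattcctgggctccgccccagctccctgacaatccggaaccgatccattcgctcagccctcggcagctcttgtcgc
Mrpl18 (chr17:12916062-12916241, - strand): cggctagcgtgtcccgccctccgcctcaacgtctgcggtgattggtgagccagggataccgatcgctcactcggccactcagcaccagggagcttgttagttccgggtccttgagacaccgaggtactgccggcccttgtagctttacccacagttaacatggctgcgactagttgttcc
Mrps18a (chr17:46110854-46111033, + strand): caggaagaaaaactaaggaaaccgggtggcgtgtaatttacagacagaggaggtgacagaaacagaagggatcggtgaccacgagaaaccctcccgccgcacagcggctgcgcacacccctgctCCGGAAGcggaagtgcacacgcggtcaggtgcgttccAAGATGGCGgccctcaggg
Mrpl43 (chr19:45006413-45006588, - strand): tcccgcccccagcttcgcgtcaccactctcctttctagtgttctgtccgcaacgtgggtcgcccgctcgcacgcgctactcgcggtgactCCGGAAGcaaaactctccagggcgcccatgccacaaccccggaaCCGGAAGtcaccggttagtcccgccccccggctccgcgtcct
Mrpl53 (chr6:83108958-83109137, + strand): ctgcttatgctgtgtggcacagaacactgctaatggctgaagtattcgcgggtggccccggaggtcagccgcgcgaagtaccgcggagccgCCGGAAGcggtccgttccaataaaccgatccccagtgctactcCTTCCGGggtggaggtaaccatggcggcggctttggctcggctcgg
Mrpl46 (chr7:78783060-78783161, - strand): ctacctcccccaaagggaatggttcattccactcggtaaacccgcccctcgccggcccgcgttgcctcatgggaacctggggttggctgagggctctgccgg

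The ETS motif, bound by factors that include the GABP complex, was present in 24 of the 69 promoters (34.8%), against 15.9% of 12292 promoters of all genes tested and 8.86% of all 32851 promoters of the same length. YY1 letters were found in 8 (11.6%, against 2.66% and 1.40%), and the NRF1 motif (GCGCA, any base, GCGC) in 11 (15.9%, against 8.91% and 4.60%). NRF1, GABP and YY1 are known regulators of nuclear genes for mitochondrial proteins. At least 1 of these 3 motifs stood in 38 promoters (55.1%), against 24.6% of promoters of genes tested. Related gene sets had similar shares for any of the 3 motifs, while shares of single motifs varied, and no difference between sets was tested. Promoters of cytosolic ribosomal protein genes held ETS letters in 39.0%, YY1 letters in 3.39%, the NRF1 motif in 8.47% and any of the 3 in 47.5% of 59 cases. For oxidative phosphorylation subunits these shares were 23.9%, 10.4%, 23.9% and 49.3% of 67. Both strands were searched, and an ETS match can share the letters AAG with a YY1 match. The E-box CACGTG was in 10.1% of the genes' promoters and in 9.64% of promoters of genes tested, and the TATA letters TATAAAA in 5.80% and 2.97%. Among small-subunit promoters 44.0% held the ETS letters, among large-subunit promoters 29.5%, and neither share was tested. In the printed stretches Mrps18a has an ETS match at -26 and a YY1 match at 12 relative to the start, Mrpl43 has ETS matches at -56 and -12, and Mrpl53 at -59 and -16. Mrpl18 has its ETS match outside the printed stretch, and the 300-base window of Mrps15 holds none of the 5 motifs.

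Starts of 22 of the 63 genes (34.9%) lay head to head with another gene's start within 1000 bases, against 1766 of 9685 genes tested (18.2%). Mrpl46 and Mrps11, a large-subunit and a small-subunit gene, start 42 bases apart, with overlapping promoter windows. Several partners also serve mitochondria. Mrps12 starts 147 bases from Sars2, the mitochondrial seryl-tRNA synthetase, Mrpl43 starts 116 bases from Twnk, the mitochondrial DNA helicase, and Mrpl47 starts 308 bases from Ndufb5, a subunit of respiratory complex I.

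Whether the set differed between Terc-/- and WT cells is the main question that the groups allow. In Terc-/- samples 57 of the 71 genes had a lower mean than in WT, where 54.1% of all genes tested did. The median difference was -0.09 on the log2 scale, against -0.01 over all genes, and single differences ran from -0.53 for Mrps15 to 0.24 for Mrpl44. Neither any of these genes nor any other gene passed limma's adjusted p of 0.05, the lowest adjusted p being 0.562 among the 71 genes and 0.503 over all 11916. At an unadjusted p under 0.05, 7 of the 71 genes (9.86%) were lower and 0 higher, where 4.64% and 2.78% of all genes tested were. The count of 7 fell to 2 (2.82%, against 4.31% of all genes) with the background subtracted, to 3 (4.23%, against 4.15%) with a trended and robust variance model, to 3 (4.23%, against 6.03%) with the replicate number as a block and to 4 of 69 (5.80%, against 4.98%) with probes above the limit on all arrays. In 2 of the 7, Mrps15 and Mrpl18, every Terc-/- sample lay below every WT sample, a pattern found for 0.839% of all genes tested. The opposite pattern was found for 0 of the 71 genes and 0.352% of all genes tested. In RNA from bulk sorted cells, fewer cells of a type and less RNA per cell cannot be told apart. Leaving out 1 sample moved the count of 7 to 2 without Terc-/- replicate 1 or WT replicate 2, to 3 without WT replicates 5 and 6, to 4 without WT replicate 1 or Terc-/- replicate 3 or 5, and to 11 without Terc-/- replicate 4 or WT replicate 4. The share of all genes tested ran from 3.16% without WT replicate 2 to 5.82% without Terc-/- replicates 2 and 6, and was 4.93% and 4.82% in the fits that gave 11 (15.5%). The median moved to -0.06 without Terc-/- replicate 1, 1 gene of the set was higher at an unadjusted p under 0.05 without WT replicate 3, and 1 gene outside the set passed the adjusted p without Terc-/- replicate 3.

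**Figure D1:**
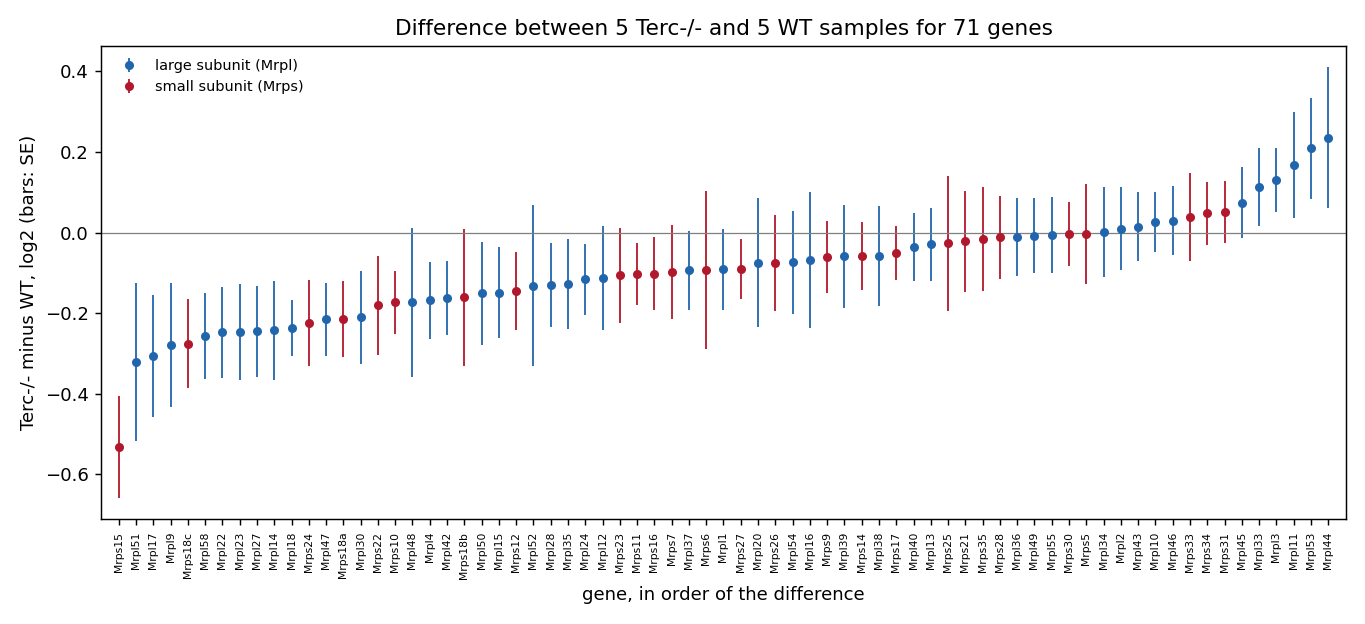
Differences between the means of 5 Terc-/- and 5 WT samples (vertical axis, log2, bars are the SE of limma's fit) for the 71 measured genes in rank order, large-subunit genes in blue and small-subunit genes in red. Mrps15 stands apart at -0.53, 57 points lie below 0, and the highest point is Mrpl44 at 0.24.

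Both subunits had more lower than higher means, and the difference between them was not tested. Of the 44 Mrpl genes 33 had a lower mean in Terc-/-, with a median difference of -0.09, and of the 27 Mrps genes 24 did, also with a median of -0.09 (75% and 88.9% of them). At an unadjusted p under 0.05 in limma's fit, 3 Mrpl genes (6.82%) and 4 Mrps genes (14.8%) were lower, against 4.64% of all genes tested. The products of Mrps18a and Mrps30 sit in the large subunit of the mammalian mitochondrial ribosome despite their names. When they were counted there, lower means were found for 35 of 46 large-subunit and 22 of 25 small-subunit genes, with both medians still at -0.09. The genes lower at an unadjusted p under 0.05 were then 4 of the 46 (8.70%) and 3 of the 25 (12%). Genes whose numbering marks a bacterial relative had a lower mean in 36 of 42 cases (median -0.11). The other genes did so in 21 of 29 cases (median -0.06). Classes followed the numbers alone, so the second may hold proteins with bacterial relatives too. The difference between these classes was not tested.

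Mrps15 encodes a small-subunit protein related to bacterial S15, which binds the small-subunit rRNA early in assembly. Its log2 level was 9.48, 9.71, 9.44, 9.34 and 9.37 in WT replicates 1, 2, 3, 4 and 5 with 6, and 8.76, 9.02, 9.27, 9.01 and 8.62 in Terc-/- replicates 1, 2 with 6, 3, 4 and 5. The groups did not overlap, and Terc-/- replicate 5 was the lowest sample. Means were 9.47 ± 0.15 (SD, n = 5) in WT and 8.94 ± 0.25 (SD, n = 5) in Terc-/-, a difference of -0.53 ± 0.13 (SE) or 1.45-fold. The adjusted p of limma was 0.562, and leaving out single samples gave differences from -0.62 to -0.45. A second, dimmer probe gave -0.38.

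Mrpl18, of the ribosomal protein family that binds 5S rRNA in bacteria, had WT levels of 10.79, 10.91, 10.85, 10.87 and 10.88, in the replicate order used above. Terc-/- levels were 10.47, 10.64, 10.76, 10.65 and 10.59. Every Terc-/- sample was again below every WT sample. The difference of -0.24 ± 0.07 (SE) corresponds to 1.18-fold, with an adjusted p of 0.632 in limma's fit. The second probe gave -0.14.

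The 3 Mrps18 paralogues descend from bacterial S18 and occupy different sites, Mrps18a in the large subunit and Mrps18b and Mrps18c in the small one. For Mrps18c, WT levels were 11.93, 12.19, 11.80, 12.02 and 12.07 and Terc-/- levels 11.43, 11.89, 11.84, 11.63 and 11.85. The 2 p-Foxo3a samples were the lowest and the other 3 Terc-/- samples lay within the WT range. Mrps18a was measured at 10.89, 10.82, 10.63, 10.56 and 10.68 in WT and at 10.30, 10.64, 10.41, 10.58 and 10.59 in Terc-/-, with all 5 Terc-/- samples below the WT mean. Mrps18b was at 11.55, 11.04, 11.35, 10.91 and 11.21 in WT and at 10.59, 11.03, 10.93, 11.47 and 11.23 in Terc-/-, so that its groups overlapped nearly throughout. Differences were -0.28 ± 0.11, -0.21 ± 0.10 and -0.16 ± 0.17 (SE) for Mrps18c, Mrps18a and Mrps18b, with adjusted p-values of 0.659, 0.668 and 0.832 from limma.

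Mrpl58 encodes a peptidyl-tRNA hydrolase that became part of the large subunit. Its levels were 9.22, 9.19, 9.09, 8.85 and 9.0 in WT and 8.57, 9.04, 8.78, 8.94 and 8.75 in Terc-/-. All 5 Terc-/- samples were below the WT mean, but WT replicate 4 and the averaged replicates 5 and 6 lay among them, and the difference was -0.26 ± 0.11 (SE; adjusted p 0.659 in limma). Mrpl47, a protein near the exit of the peptide tunnel, was at 10.24, 10.38, 10.59, 10.37 and 10.35 in WT and at 10.01, 10.34, 10.06, 10.26 and 10.19 in Terc-/-. Again the Terc-/- samples all lay below the WT mean and overlapped WT replicate 1, with a difference of -0.22 ± 0.09 (SE). Its head-to-head partner Ndufb5 differed by -0.37 ± 0.13 (SE).

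Mrpl22 lines the peptide tunnel and was at 10.97, 11.04, 11.10, 10.98 and 11.06 in WT. In Terc-/- it was at 10.53, 11.11, 10.76, 10.96 and 10.57, so the averaged replicates 2 and 6 had the highest level of all samples and the other 4 lay below WT. Mrps10, of the S10 family at the head of the small subunit, was at 10.93, 10.80, 10.70, 10.75 and 10.74 in WT and at 10.63, 10.65, 10.56, 10.76 and 10.46 in Terc-/-. Only Terc-/- replicate 4 of that group lay within the WT range. Differences were -0.25 ± 0.11 for Mrpl22 and -0.17 ± 0.08 (SE) for Mrps10, with adjusted p-values of 0.674 and 0.668 in limma.

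**Figure D2:**
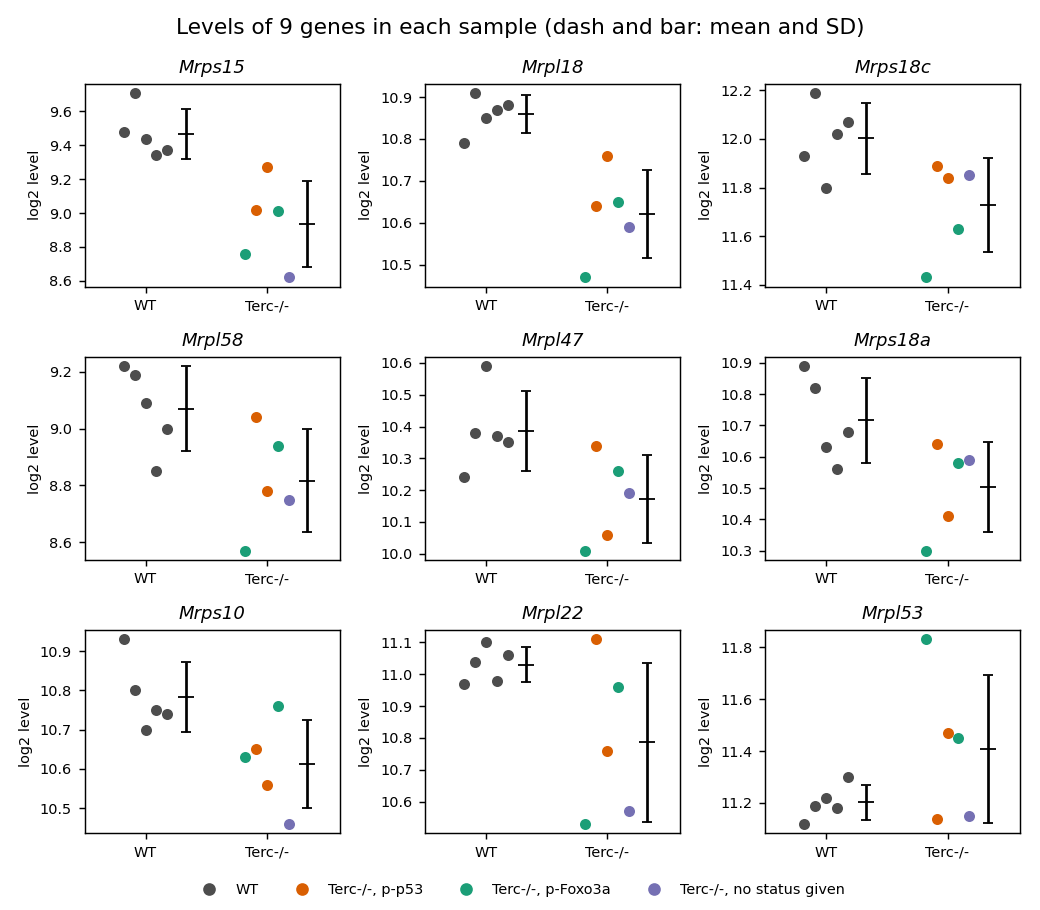
Log2 level (vertical axes, each with its own range) of 9 genes in 5 WT and 5 Terc-/- samples, coloured by status label, with the mean and SD beside each group. Mrps15 and Mrpl18 show no overlap between the groups, and Mrpl53 is highest in Terc-/- replicate 1 at 11.83.

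Mrpl12 encodes the flexible stalk protein that contacts translation factors and is also known to bind the mitochondrial RNA polymerase. It was at 11.92, 11.82, 12.24, 11.69 and 11.79 in WT and at 11.60, 11.81, 11.63, 12.14 and 11.72 in Terc-/-. With a difference of -0.11 ± 0.13 (SE) the groups overlapped over most of their range. Mrpl10, at the base of the same stalk, was at 11.98, 11.89, 12.06, 11.89 and 11.93 in WT and at 11.99, 11.91, 11.83, 12.14 and 12 in Terc-/-, a difference of 0.03 ± 0.08 (SE). Mrpl53, a mitochondria-specific protein of the stalk region, was at 11.12, 11.19, 11.22, 11.18 and 11.30 in WT and at 11.83, 11.14, 11.47, 11.45 and 11.15 in Terc-/-. Terc-/- replicates 1, 3 and 4 lay above all WT samples and the other Terc-/- samples inside the WT range, so the difference was 0.21 ± 0.13 (SE; adjusted p 0.708 in limma).

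Mrpl44, which carries a fold related to RNase III, had the largest positive difference of the 71 genes (0.24 ± 0.17, SE). No Terc-/- sample of Mrpl44 or Mrpl3 lay below the WT mean, and for Mrpl3 the difference was 0.13 ± 0.08 (SE). For 15 genes all 5 Terc-/- samples lay below the WT mean, and the share of all genes tested with this pattern was not counted. The difference was larger than its own SE in 33 of the 71 genes, a share likewise not counted over all genes tested.

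Genes at the ends of the brightness range are given whatever their difference. The probes of Mrpl33, Mrps33, Mrpl23 and Mrps24 were the brightest, although brightness of different probes gives no order of their mRNAs. Mrpl33, a small protein of the L33 family, was at 14.42, 14.29, 14.63, 14.17 and 14.23 in WT and at 14.46, 14.54, 14.32, 14.54 and 14.44 in Terc-/-. Mrps33 was at 13.13, 13.24, 13.20, 12.90 and 13.09 in WT and at 13.46, 13.20, 12.91, 13.13 and 13.05 in Terc-/-. These 2 genes had Terc-/- means 0.11 ± 0.10 and 0.04 ± 0.11 (SE) above WT.
Mrpl23, of the L23 family at the tunnel exit, was at 13.12, 13.23, 13.30, 12.90 and 13.11 in WT and at 12.71, 13.15, 12.77, 13.12 and 12.68 in Terc-/-. Terc-/- replicates 1, 3 and 5 lay below all WT samples. Mrps24, related to bacterial S3 at the mRNA entry, was at 13.23, 13.21, 13.22, 12.79 and 12.94 in WT and at 12.71, 12.90, 12.72, 12.97 and 12.97 in Terc-/-. Here WT replicates 1, 2 and 3 lay above all Terc-/- samples, and differences were -0.25 ± 0.12 for Mrpl23 and -0.22 ± 0.11 (SE) for Mrps24.

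The 4 dimmest genes were Mrpl45, Mrps14, Mrpl39 and Mrpl51. Mrpl45, whose protein tethers the ribosome to the inner membrane, lay between 6.43 and 6.66 in WT and between 6.49 and 6.85 in Terc-/-. Mrps14 lay between 6.45 and 6.74 in WT and between 6.36 and 6.63 in Terc-/-. Both stayed within reach of the limit of 6.57, so their differences of 0.07 ± 0.09 and -0.06 ± 0.08 (SE) carry little information.
Mrpl39 was at 7.22, 7.60, 7.18, 6.98 and 7.15 in WT and at 7.45, 7.18, 7.22, 7.02 and 6.98 in Terc-/-. Mrpl51 was at 7.70, 8.45, 8.12, 7.92 and 8.00 in WT and at 7.97, 7.06, 8.09, 7.74 and 7.72 in Terc-/-. The averaged replicates 2 and 6 set the low end of Mrpl51, whose difference was -0.32 ± 0.20 (SE).

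Besides Mrpl51 and Mrps15, Mrpl52 and Mrps6 had the largest SD over the 10 samples. Mrpl52 was at 10.15, 10.01, 10.17, 9.66 and 9.73 in WT and at 9.81, 10.21, 9.08, 9.94 and 10.02 in Terc-/-, so that Terc-/- replicate 3 alone was low. Mrps6, of the S6 family at the platform, was at 9.93, 9.77, 9.95, 8.99 and 9.57 in WT and at 9.78, 9.58, 9.12, 9.83 and 9.43 in Terc-/-. WT replicate 4 and Terc-/- replicate 3 were the low samples. Over the 71 genes the median SD across samples was 0.18, against 0.24 for 5752 genes of similar brightness and 0.20 for all genes tested.

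The same samples were high or low for most of the set. Averaged over the 71 genes, the deviation from each gene's mean over the 10 samples was 0.12, 0.09, 0.12, -0.10 and 0.002 in the WT samples. In Terc-/- samples it was -0.13, -0.01, -0.07, 0.08 and -0.09. WT replicates 1, 2 and 3 lay above all Terc-/- samples, whereas WT replicate 4 was lower than 4 of the 5 Terc-/- samples, with 54 of 71 genes below their mean. Terc-/- replicate 4, with 19 of 71 genes below their mean, was higher than both remaining WT samples. For Mrpl genes the WT range was -0.11 to 0.14 and the Terc-/- range -0.15 to 0.09, and for Mrps genes the ranges were -0.09 to 0.15 and -0.11 to 0.06.

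**Figure D3:**
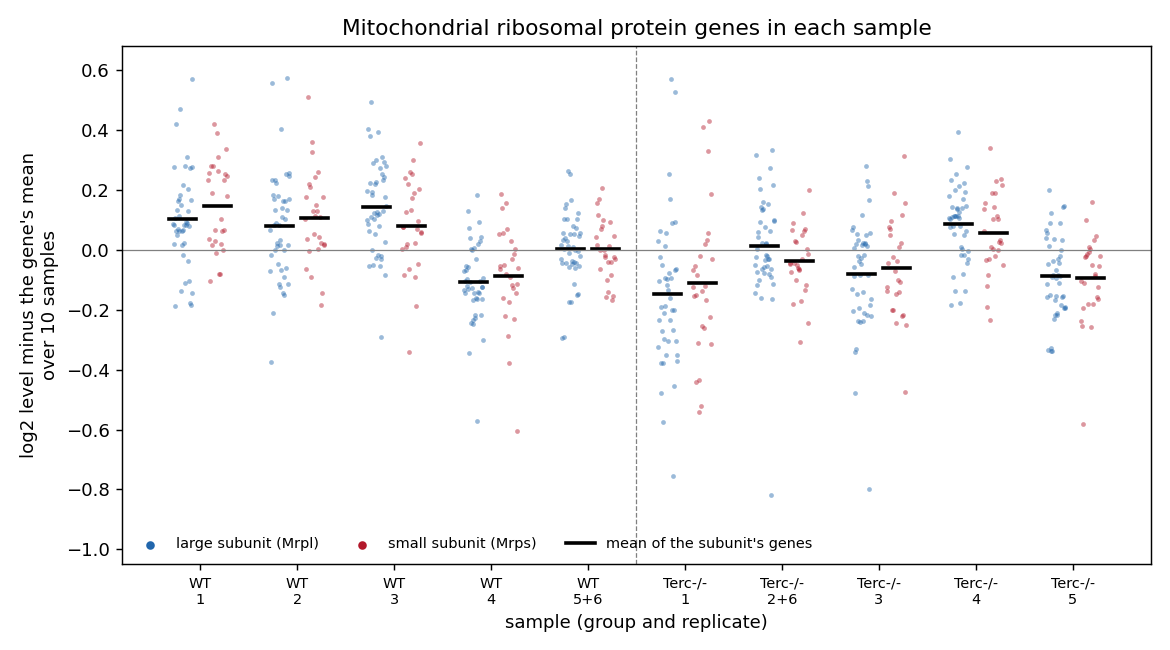
Deviation of each of 71 genes from its mean over 10 samples (vertical axis, log2) in every sample, with large-subunit genes in blue, small-subunit genes in red and black bars at the mean of each subunit. Both subunits are high in WT replicates 1 to 3 and Terc-/- replicate 4 and low in WT replicate 4 and Terc-/- replicates 1, 3 and 5.

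Other mitochondrial and ribosomal genes were set beside the set. Oxidative phosphorylation subunits, most of whose complexes also hold products of mitochondrial translation, had a lower mean in 57 of 73 genes, with a median difference of -0.09. Their average deviations were 0.07, 0.12, 0.09, -0.07 and 0.04 in WT and -0.12, 0.04, -0.02, 0.03 and -0.16 in Terc-/-. Genes for cytosolic ribosomal proteins had a lower mean in 26 of 58 cases, with a median difference of 0.003. Genes of mitosis had a lower mean in 15 of 15 cases, with a median of -0.43. WT replicate 4 was the highest sample for mitosis genes (0.44) and the second lowest for the mitochondrial ribosome, and Terc-/- replicate 1 was the lowest sample for both (-0.85 and -0.13). For neutrophil markers, WT replicate 4 was the highest sample (1.00) and Terc-/- replicates 2 with 6 and 4 the lowest (-1.36 and -1.23), and neither list's part in the ribosomal protein values was tested.

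**Figure D4:**
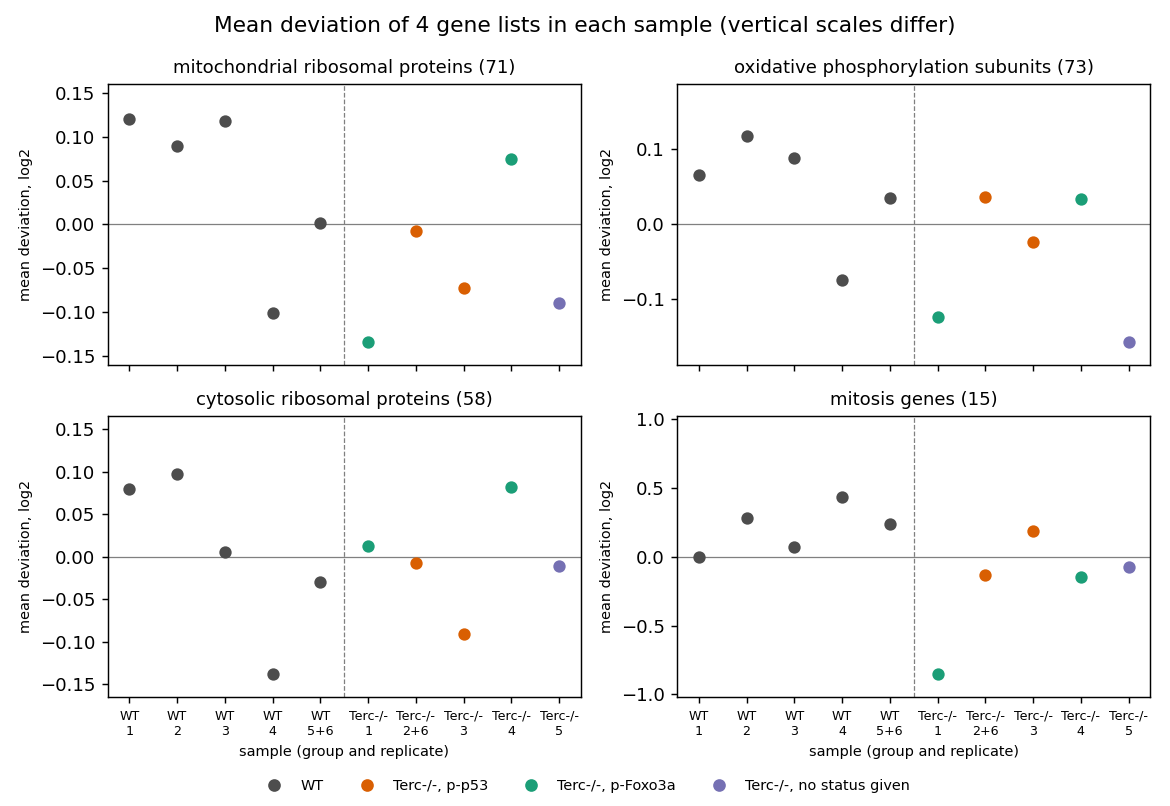
Mean deviation of 4 gene lists (vertical axes, log2, with different ranges) in 5 WT and 5 Terc-/- samples, coloured by status label. Mitochondrial ribosomal proteins and oxidative phosphorylation subunits are both low in WT replicate 4 (-0.10 and -0.07) and Terc-/- replicates 1 and 5, and mitosis genes are at -0.85 in Terc-/- replicate 1.

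Genes that act with the mitochondrial ribosome gave a mixed picture, and 0 of them passed limma's adjusted p of 0.05. Of the translation factors 11 of 13 measured genes had a lower mean in Terc-/-, with a median of -0.10. Those of smallest p were the initiation factor Mtif3 (-0.50 ± 0.20, SE), the recycling factor Mrrf (-0.22 ± 0.11) and the deformylase Pdf (-0.22 ± 0.14). Among assembly and rRNA modification factors 17 of 26 had a lower mean (median -0.04), among them the rRNA dimethylase Tfb1m (-0.28 ± 0.09, SE; adjusted p 0.632) and Ngrn (-0.17 ± 0.07, near background), while the pseudouridine synthase Trub2 was at 0.26 ± 0.11. Of genes for transcription and RNA processing 15 of 22 had a lower mean (median -0.08), led by the RNase P subunit Hsd17b10 (-0.47 ± 0.15, SE; adjusted p 0.632), Fastkd3 (-0.26 ± 0.12) and Fastkd1 (-0.31 ± 0.14).
Aminoacyl-tRNA synthetases and amidotransferase genes divided 11 lower to 8 higher (median -0.03), with Gatb at -0.33 ± 0.12, Pars2 at -0.32 ± 0.14 and Iars2 at 0.21 ± 0.11 (SE). Regulators of mitochondrial biogenesis had a lower mean in 4 of 10 cases (median 0.05), with the coactivator Pprc1 at 0.36 ± 0.17, Max at 0.21 ± 0.11 and the GABP subunit Gabpb1 at -0.25 ± 0.15 (SE). Of 5 mitochondrial ribosome proteins with other names 3 had a lower mean, and Chchd1, Gadd45gip1 and Dap3 were at -0.12 ± 0.08, 0.03 ± 0.10 and -0.02 ± 0.07 (SE).

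Differences between Terc-/- and WT were also set beside the promoter features. The 24 genes with an ETS match had a median difference of -0.14 with 18 lower means, and the 39 without one a median of -0.08 with 30 lower. All 8 genes with YY1 letters had a lower mean (median -0.12), as did 40 of 55 without (median -0.09). For NRF1 the medians were -0.07 in 11 genes with the motif and -0.10 in 52 without. Of the 16 head-to-head partners that were measured, 11 had a lower mean in Terc-/- (median -0.07). In 12 of the 16 cases gene and partner had differences of one sign. Mrpl46 and Mrps11 are partners of each other, so this pair enters the 16 cases from both sides. The share over all head-to-head pairs of genes tested was not counted. Mrpl18 and its partner Tcp1 were at -0.24 ± 0.07 and -0.12 ± 0.15 (SE), and Mrps11 and Mrpl46, which start head to head, at -0.10 ± 0.08 and 0.03 ± 0.09.

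Whether the status labels separate the set was asked with 2 p-p53 and 2 p-Foxo3a samples, each against the same 5 WT samples, in a fit that left out replicate 5. The comparisons share their WT samples, so their values are given side by side and not compared with one another. In p-p53 samples 50 of the 71 genes had a lower mean than WT, with a median difference of -0.12, where 53.1% of all genes tested did. In p-Foxo3a samples 51 did, with a median of -0.07, where 53.1% of all genes tested did too. No gene passed limma's adjusted p of 0.05 in either comparison. At an unadjusted p under 0.05, the p-p53 samples gave 1 lower and 0 higher gene of the 71 (all genes tested: 1.36% and 1.27%), and the p-Foxo3a samples 3 lower and 1 higher (5.52% and 4.25%). Non-overlapping groups were found for 5 lower and 0 higher genes in p-p53 (all genes tested: 4.33% and 4.01%) and for 6 lower and 1 higher in p-Foxo3a (7.44% and 5.07%). Without Terc-/- replicate 1 the p-Foxo3a median was 0.05 with 28 lower means, and without replicate 4 it was -0.17, with 16 genes (22.5%) lower and 3 (4.23%) higher at an unadjusted p under 0.05, where 9.47% and 8.81% of all genes tested were, and 260 genes, 0 of them in the set, past the adjusted p. Without Terc-/- replicate 1 there was 1 lower gene and 2 higher, with 1 gene outside the set past the adjusted p (all genes tested: 3.10% lower and 2.47% higher). Without WT replicate 1 there were 3 lower and 2 higher (5.88% and 5.41%), and without WT replicate 4 there were 5 lower and 1 higher (5.05% and 3.46%). Without Terc-/- replicate 3 the p-p53 median was -0.06, with 15 genes, 0 of them in the set, past the adjusted p, and the count of 1 lower gene became 2 there, 3 without replicates 2 and 6, 4 without WT replicate 4 and 0 without any other WT sample, with 1 higher gene without WT replicate 1. In p-p53 samples 1 gene outside the set passed the adjusted p without replicates 2 and 6. Of all genes tested, 1.01% to 2.38% were lower at an unadjusted p under 0.05 in these p-p53 fits, with 1.78% where 4 of the set were.

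By subunit, the p-p53 medians were -0.10 for Mrpl and -0.13 for Mrps genes, and the p-Foxo3a medians -0.07 for both. Mrps15 differed from WT by -0.32 ± 0.14 in p-p53 and -0.59 ± 0.14 (SE) in p-Foxo3a samples, with adjusted p-values of 1 and 0.435 in limma. Mrpl18 differed by -0.16 ± 0.10 and -0.30 ± 0.10 (SE). Under either label both genes lay below all WT samples, which follows from the lack of overlap between the whole groups. Mrps18c differed by -0.14 ± 0.13 in p-p53 and -0.48 ± 0.13 (SE) in p-Foxo3a samples, the latter with an adjusted p of 0.460 in limma. Mrpl53 differed by 0.11 ± 0.14 and 0.44 ± 0.14 (SE), and its p-Foxo3a difference was 0.63 in replicate 1 alone and 0.25 in replicate 4 alone.

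Mrpl58 differed from WT by -0.32 ± 0.15 (SE) in p-Foxo3a samples, and by -0.13 without replicate 1. Among the genes of smallest p in p-p53 samples, Mrps10 differed by -0.18 ± 0.10, Mrps24 by -0.27 ± 0.15 and Mrpl17 by -0.37 ± 0.22 (SE). Mrpl17, of the L17 family of the large subunit, was at 12.59, 12.54, 12.95, 12.40 and 12.56 in WT and at 11.98, 12.50, 11.98, 12.60 and 12.47 in Terc-/-. Its low samples were replicate 1 (p-Foxo3a) and replicate 3 (p-p53), 1 of each label.

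Tested directly against each other, p-p53 and p-Foxo3a samples gave lower p-p53 means in 36 of the 71 genes, with a median difference of -0.01, and 0 genes past limma's adjusted p. At an unadjusted p under 0.05, 1 gene was lower in p-p53 and 0 were higher (all genes tested: 2.53% and 2.61%). Groups of 2 did not overlap for 8 lower and 8 higher genes, against 14% and 15.5% of all genes tested. Without replicate 1 the median was -0.14 with 54 lower means, and without replicate 4 it was 0.12 with 19, with 5 genes higher and 2 lower at an unadjusted p under 0.05 (all genes tested: 5.86% and 6.24%) and 29 genes, 0 of them in the set, past the adjusted p. The count of 1 lower gene became 2 without WT replicate 4 (2.82%, against 2.67% of all genes tested). It became 0 without WT replicate 2 or 3 (all genes tested: 2.13% and 2.35%). In each of these fits 1 gene was higher (1.41%, against 2.4%). Genes past the adjusted p, 0 of them in the set, numbered 12 without Terc-/- replicate 3, 1 without replicate 1 and 1 without replicates 2 and 6.

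Mrps35, a mitochondria-specific protein of the small subunit's head, had the smallest p of that comparison. It was at 10.97, 10.76, 10.69, 10.74 and 10.57 in WT and at 11.17, 10.62, 10.52, 10.77 and 10.58 in Terc-/-. The p-p53 samples differed from the p-Foxo3a samples by -0.40 ± 0.17 (SE; adjusted p 0.942 in limma), with replicate 1 far above replicate 4. Mrps25, another mitochondria-specific small-subunit protein, was at 8.98, 8.78, 8.84, 8.29 and 8.51 in WT and at 9.08, 8.36, 8.63, 8.81 and 8.41 in Terc-/-, a difference between the labels of -0.46 ± 0.23 (SE). Mrps18c, Mrpl53 and Mrpl10 differed by 0.34 ± 0.15, -0.33 ± 0.16 and -0.20 ± 0.11 (SE). Of these 5 genes Mrps35, Mrps25 and Mrpl53 lie on chromosome 6.

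Terc-/- replicate 1 (p-Foxo3a) stood apart by chromosome. Across the other genes tested whose mean was above 8, its levels were above the mean of the 9 other samples by a median of 0.39 on chromosome 6 (312 genes) and 0.44 on chromosome 16 (208 genes), and below it by 0.21 on chromosome 2 (492 genes), while medians on the remaining chromosomes lay between -0.11 and 0.03. Replicate 4, with the same label, had medians of -0.05 and -0.03 on chromosomes 6 and 16. Of the 9 mitochondrial ribosomal protein genes on chromosomes 6 and 16, 8 were above the mean of the other samples in replicate 1, and 5 were the highest of all samples. Elsewhere 53 of 62 were below that mean, and 28 were the lowest of all samples. Over the whole set replicate 1 was the lowest sample for 28 of 71 genes (39.4%), where it was lowest for 19.9% of all genes tested.

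On chromosome 6, Mrpl53, Mrps35, Mrps25 and Mrps33 exceeded the other samples by 0.58, 0.48, 0.45 and 0.37 in replicate 1. Mrpl51 exceeded them by 0.11, and Mrpl35 was lower by 0.11. Mrpl39, Mrps6 and Mrpl40 on chromosome 16 exceeded them by 0.28, 0.20 and 0.19. The highest single gene was Mrpl44 on chromosome 1, at 0.63. The farthest below the other samples was Mrpl48 on chromosome 7 (10.57, against 11.14 to 11.60 in the other samples), followed by Mrpl20 on chromosome 4 (10, against 10.23 to 10.81) and Mrps18b on chromosome 17 (10.59, against 10.91 to 11.55). When genes on chromosomes 2, 6 and 16 were left out, the median difference from WT was -0.08 in p-Foxo3a and -0.10 in all Terc-/- samples.

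**Figure D5:**
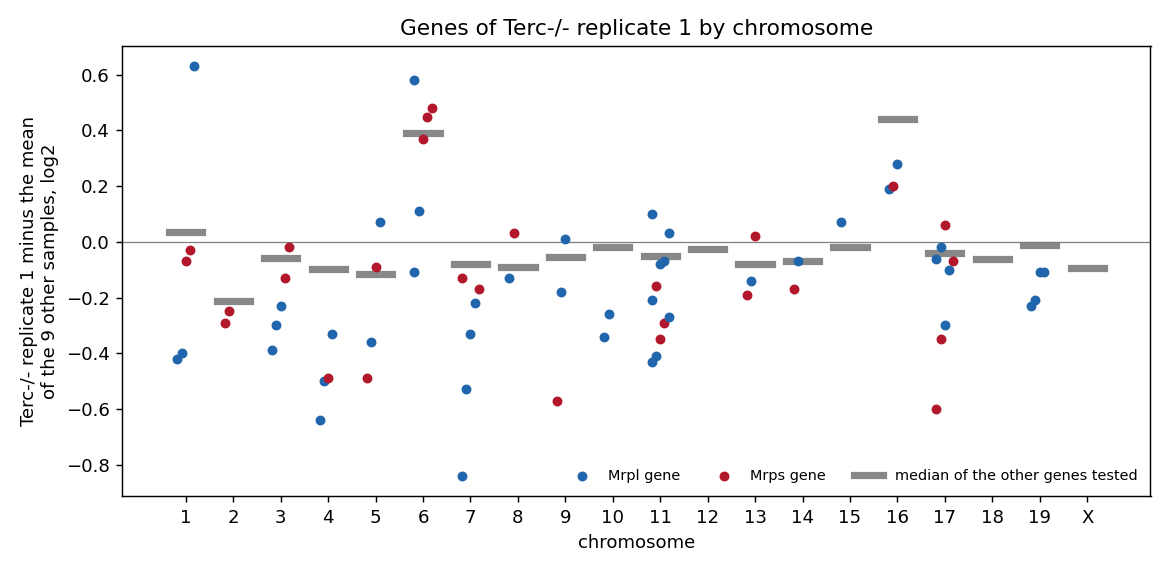
Level in Terc-/- replicate 1 minus the mean of the 9 other samples (vertical axis, log2) by chromosome, with Mrpl genes in blue, Mrps genes in red and grey bars at the median of other genes whose mean was above 8. Grey bars and most points are high on chromosomes 6 and 16, and most other points lie below 0.

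Where a gene had more than 1 detected probe, the probes could be compared in direction. This was so for 27 genes, and the probes had Terc-/- minus WT differences of one sign in 19 of them and of both signs in 8. The probes of Mrps15 and Mrpl18 had one sign. Mrpl47 had 3 probes with differences of -0.22, -0.12 and 0.03, the last on a probe near background. Bright probes differed in sign too. Those of Mrps33 gave 0.038 and -0.085 (second probe at 12.24 in WT), and those of Mrpl10 0.026 and -0.022 (second probe at 11.68 in WT).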

How the data were processed

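Values were the log2 levels of 38502 probes on 12 arrays as deposited by the authors. The submitters' processing notes name GenomeStudio without a version, and how values were normalized and corrected for background is not given in the sources used here. Sorted values of any 2 arrays differed by at most 0.09 at any rank, the log base was read from the range of the values, and no background subtraction was visible, so differences understate those of dim genes. The 24 columns of a raw table matched no sample by name and were not used, so the background limit was set from the values instead (mode 6.35, SD 0.13, tail p 0.05), and a probe was kept when above it on at least 3 arrays, as 21962 were. Symbols came from the platform annotation, which gave 1 gene to 32034 probes and several to 16 and did not list 6452, and 31976 probes matched the gene table of GRCm38.p6 by Entrez identifier.

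The brightest kept probe stood for each gene. Tests were those of limma 3.58.1 (R 4.3.3; functions lmFit and eBayes), two-sided, with Benjamini-Hochberg adjustment over 11916 genes and a threshold of 0.05. The status comparisons were made in 1 fit of 9 samples. The fit of Terc-/- against WT was tested on simulated data, and the fit of the status labels was not. Genes given in every sample were the 8 of smallest p in Terc-/- against WT, the 5 of smallest p in each status comparison, the 4 brightest, the 4 dimmest, the 4 of largest SD and Mrps18a, Mrps18b, Mrps18c and Mrpl12, which makes 25 genes, and from each other list the 3 of smallest p were named. Single genes outside this rule (Mrpl44, Mrpl3, Mrpl48, Mrpl20, Mrpl35, Mrpl40 and those at shared promoters) were chosen after their values were seen. The members and the lists were chosen with earlier results of these data known. Same-numbered WT and Terc-/- arrays had deviations correlated between -0.22 and 0.15, so the numbers were not used as pairs. Alternatives changed the treatment of near-identical arrays, the filter, the probe rule, the scaling, the background, the variance model, the block and the samples.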

Additional observations from a re-analysis of the deposited data

How the results depend on the processing

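The set had 0 genes past limma's adjusted p in all 4 comparisons under all alternatives run. Of the 25 genes given in every sample, 7 changed the sign of their Terc-/- minus WT difference under at least 1 alternative, all of them with differences between -0.13 and 0.04. With 1 sample left out, Mrps35 ran from -0.13 to 0.04, Mrps25 from -0.13 to 0.05, Mrps33 from -0.04 to 0.10, Mrpl10 from -0.01 to 0.06, Mrpl39 from -0.13 to 0.04, Mrps6 from -0.25 to 0.01 and Mrpl52 from -0.23 to 0.05, with -0.20 without WT replicate 4. Mrps33 was at -0.02 with the mean of a gene's probes, and Mrps35 reached 0 with samples centred on their median. The other 18 kept their sign, as did the 5 genes of smallest p in each status comparison. The median Terc-/- minus WT difference lay between -0.10 and -0.07 under the alternatives that kept all samples, and between -0.13 and -0.06 when 1 sample was left out, with 50 to 60 lower means, 2 to 11 genes lower at an unadjusted p under 0.05, 0 to 1 gene past the adjusted p, and subunit medians of -0.15 to -0.05 (large) and -0.12 to -0.05 (small). The count of 7 lower genes became 2 with the background subtracted, 3 with a trended and robust variance model and 4 with probes above the limit on all arrays. With 1 sample left out, p-p53 against WT gave 0 to 15 genes past the adjusted p, 0 to 4 genes of the set lower at an unadjusted p, 48 to 54 lower means and a median of -0.14 to -0.06 (large -0.13 to -0.04, small -0.16 to -0.09). For p-Foxo3a against WT these were 0 to 260, 1 to 16, 28 to 56 and -0.17 to 0.05 (large -0.195 to 0.057, small -0.17 to 0.02), and for p-p53 against p-Foxo3a 0 to 29, 0 to 2, 19 to 54 and -0.14 to 0.12 (large -0.14 to 0.15, small -0.10 to 0.10). A status left with 1 sample was taken to have the spread of the rest.

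With all arrays as separate samples, near-identical arrays were counted as replicates. There p-p53 against WT had 1 gene past the adjusted p and 3 lower genes of the set (4.23%, against 4.49% of all genes tested). For p-Foxo3a against WT 5 were lower (7.04%, against 7.17%), and for p-p53 against p-Foxo3a 3 were lower (4.23%, against 4.93%). With the background subtracted, 1 gene passed in p-p53 against WT and 1 in p-p53 against p-Foxo3a, and the lower genes of the set were 0 in both. The lower genes of the set were 0 in both with a trended and robust variance model or probes above the limit on all arrays. They were 0 in p-p53 against WT with near-identical arrays as a random block or samples centred on their median. Of all genes tested, 1.1% to 2.55% were lower in the fits that gave 0 lower genes of the set here. With the replicate number as a block the lower genes were 3 in Terc-/- against WT (4.23%, against 6.03% of all genes tested). In p-p53 against WT they were 2 (2.82%, against 3.22%), and 0 genes passed the adjusted p. The causes of these changes were not tested.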

Other observations

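Terc-/- replicate 5, which carries no status label, had a mean deviation of -0.09 over the 71 genes, with 53 of them below their mean over the 10 samples. It was the lowest of the 10 samples for 10 of the genes, Mrps15 (8.62) among them, and the highest for 0 (14.1% and 0% of them, against 8.33% and 5.89% of all genes tested). Oxidative phosphorylation subunits had a mean deviation of -0.16 there, with 70 of 73 genes below their mean.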
